A study of Mus musculus with 4 samples.

Results

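The plasma transport proteins of the liver were examined through 10 genes, taken by symbol from a table of 31828 genes: Alb, Afp, Ttr, Trf, Rbp4, Gc, Ambp, Ahsg, Fetub and Apoh. Each symbol matched exactly 1 row of the table. RNA-seq was performed on AML12 cells, an immortalised mouse hepatocyte line, with 2 libraries from 2D cultures in dishes and 2 from 3D cultures embedded in Matrigel, a basement membrane extract. All 4 libraries came from medium with 10% fetal calf serum, 10 μg/mL insulin, 5.5 μg/mL human transferrin protein, selenite and 40 ng/mL dexamethasone, a synthetic glucocorticoid. All cultures also received 1 mM hydroxyurea, which blocks DNA replication. The drug was added at a set confluence in 2D but after 24 h of growth in 3D. The exposure lasted 24 h for the 2D cultures but 36 h for the 3D cultures. Growth dimension, contact with Matrigel, growth before the drug and exposure time therefore cannot be told apart. The labels do not say whether the 2 libraries of a culture came from separate cultures, and p-values then measure only the spread between these libraries, which may be technical.

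Hepatocytes secrete most of the protein of blood plasma, and many of these proteins carry small molecules that would otherwise be lost or toxic. Albumin (Alb) binds fatty acids, bilirubin and hormones, and alpha-fetoprotein (Afp) is its fetal relative, silenced in liver after birth. Transthyretin (Ttr) carries thyroid hormone and holds the retinol-binding protein (Rbp4) in the circulation, transferrin (Trf) carries iron, and Gc carries vitamin D. Ambp encodes alpha-1-microglobulin, a haem-binding lipocalin, together with bikunin, a protease inhibitor, and Ahsg and Fetub encode the fetuins, of which the Ahsg product holds calcium phosphate in solution. Apoh, or beta-2-glycoprotein I, binds phospholipids.

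The line was first checked against hepatocyte genes that are not among the 10. Of 15 such markers 14 were listed, and 10 of these stayed below 1 TPM (a transcript abundance corrected for length and scaled to a fixed total per library) in every library. These were Cps1, Arg1, Pck1, G6pc, Tat, Cyp2e1, Cyp3a11, Asgr1, Fgb and Slc10a1, which are defining genes of mature hepatocytes. Hnf4a, Apoa1 and Apob were expressed, and all 3 were higher in the 3D-cultured cells. They were the only hepatocyte markers tested, by the test given below, which called 23.4% of all tested genes higher. Ass1 was too low for it, at 0.539 and 1.07 TPM in 2D and at 0.475 and 0.927 TPM in 3D, with the cultures overlapping. Of 6 bile duct markers, Krt7 and Krt19 were abundant and fell by 0.65 and 0.49 on the log2(TPM + 1) scale, while Spp1 rose by 2.35 and Sox9 by 0.62. The summed level of the 6 was 2294 to 2402 TPM in the 2D libraries and 2269 to 2357 TPM in the 3D libraries, and Epcam was listed at 0 in 3 libraries. All 6 endothelial markers were below 1 TPM in every library, with sums of 1.00 to 1.68 TPM in 2D and 1.79 to 2.22 TPM in 3D. Of 8 stellate and fibroblast markers 6 were below 1 TPM, and their sum was 37.1 to 40.1 TPM in 2D and 19.9 to 21.03 TPM in 3D. Of 6 macrophage and leukocyte markers 4, including Ptprc and Adgre1, were below 1 TPM, and the sum was 132 to 133 TPM in 2D and 293 to 297 TPM in 3D, nearly all of it Cd14 and Cd68. The part of these marker changes in the results was not tested.

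The transport protein genes were compared between cultures to see how their RNA differed with growth dimension. In the 3D-cultured cells, 5 of the 10 genes were strongly up-regulated, namely Ttr, Trf, Gc, Alb and Rbp4. Afp did not pass the test, and Ambp, Ahsg, Fetub and Apoh were too low to be tested. The test was limma on log2(TPM + 1) over 14116 genes with a mean of at least 1 TPM, with adjustment for all of them. All 6 tested members also had a mean of at least 1 TPM in 2D alone, so none was admitted by its 3D level. Of all tested genes, 23.4% were higher and 27.1% were lower in 3D at an adjusted p-value under 0.05, against 5 and 0 of the 6 tested members. All 5 also exceeded a log2 difference of 2, which 0.801% of the tested genes did in that direction. With a pseudocount of 5 in place of 1, 4 members exceeded it, and Alb was at 1.44. The median log2 difference was 2.77 over the 6 members and -0.04 over all tested genes. The members were chosen with earlier results of these data known, so these contrasts with all tested genes are no independent support. In bulk RNA, a change in the number of cells that express a gene and a change in RNA per cell cannot be told apart.

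**Figure D1:**
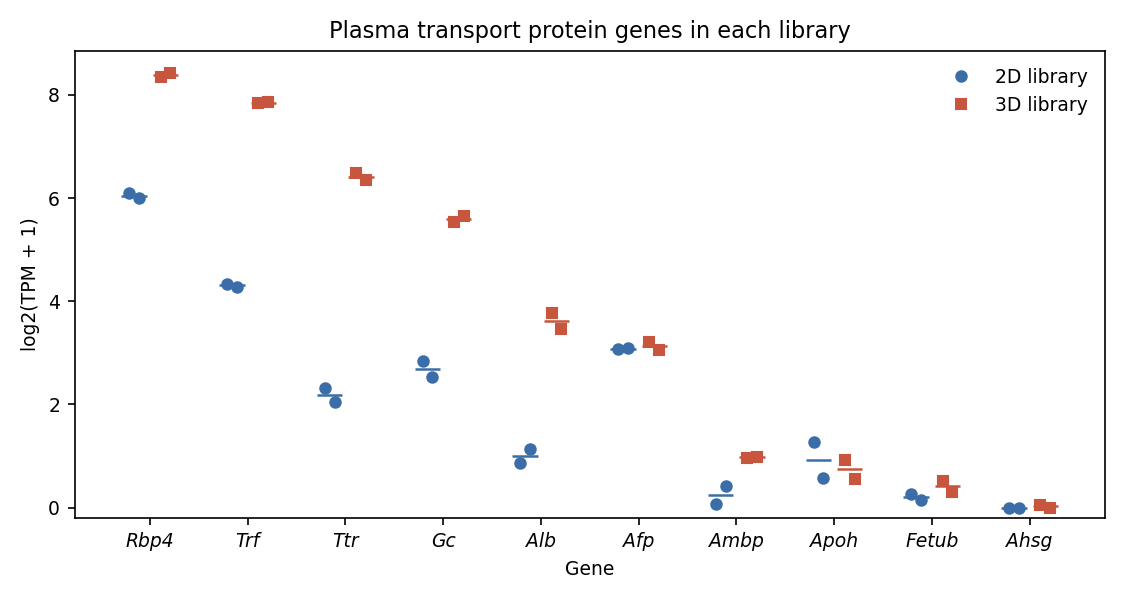
Level of each transport protein gene in each library, as log2(TPM + 1), with circles for 2D libraries, squares for 3D libraries and a short line for each culture's mean. The 3D libraries of Rbp4, Trf, Ttr, Gc and Alb lie far above the 2D libraries, those of Afp overlap, and Ambp, Apoh, Fetub and Ahsg stay near the bottom of the axis.

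Ttr (ENSMUSG00000061808, chromosome 18, 20665250 to 20674324, GRCm38) had the largest change of the 10 genes. It was listed at 3.98 and 3.11 TPM in 2D and at 88.1 and 80.9 TPM in 3D. The lowest 3D library was thus 20.3 times the highest 2D library. The difference on the log2(TPM + 1) scale, used throughout, was 4.24 (95% interval 3.93 to 4.55, adjusted p 0.000211, limma), rank 9 from the top among the 14116 genes. An antisense gene, Gm16090, overlaps Ttr by 11 bases on the other strand and did not exceed 0.0913 TPM.

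Rbp4 (ENSMUSG00000024990, chromosome 19, 38116620 to 38125321), whose protein circulates bound to transthyretin, was the most abundant of the 10 in every library. It stood at 67.1 and 62.7 TPM in 2D and at 324 and 345 TPM in 3D. Among the 31828 listed genes it ranked 3028 and 3322 by TPM in 2D, against 423 and 399 in 3D. The log2 difference was 2.35 (95% interval 2.20 to 2.50, adjusted p 0.000194, limma), the smallest of the 5 genes that rose. The Ttr to Rbp4 ratio of TPM did not overlap between the cultures, at 0.0594 and 0.0496 in 2D and 0.272 and 0.235 in 3D. An exact permutation test of this ratio gave a two-sided p of 0.3333, the smallest that 2 libraries against 2 allow.

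Trf (ENSMUSG00000032554, chromosome 9, 103204001 to 103230444) was second in level in all libraries. It was listed at 19.3 and 18.4 TPM in 2D and at 227 and 231 TPM in 3D, with no overlap and little spread within a culture. With a log2 difference of 3.54 (95% interval 3.41 to 3.67, adjusted p 9.63e-05, limma) it ranked 16 from the top among the tested genes. The human transferrin of the medium is a protein supplement and was present in both cultures.

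Gc (ENSMUSG00000035540, chromosome 5, 89417522 to 89457898), the vitamin D-binding member of the albumin family, was at 6.19 and 4.75 TPM in 2D and at 45.6 and 49.1 TPM in 3D. It rose by 2.91 on the log2 scale (95% interval 2.57 to 3.25, adjusted p 0.000361, limma). The 2D libraries of Gc differed by 0.32 on the log2(TPM + 1) scale and the 3D libraries by 0.10, far less than the cultures did.

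Alb (ENSMUSG00000029368, chromosome 5, 90460897 to 90476602) encodes the most abundant protein of plasma. It was at 0.819 and 1.203 TPM in 2D and at 12.7 and 10.04 TPM in 3D, with no overlap. Even in 3D it ranked 8758 and 9353 among the 31828 genes, below Rbp4, Trf, Ttr and Gc in the same libraries. Alb rose by 2.62 on the log2 scale (95% interval 2.18 to 3.06, adjusted p 0.000691, limma). On this scale the change of a low gene is understated, and the ratio of mean TPM was 11.3, close to the 12.2 of Trf. The Alb to Trf ratio of TPM was 0.0425 and 0.0656 in 2D and 0.0561 and 0.0434 in 3D, with the cultures overlapping.

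Afp (ENSMUSG00000054932, chromosome 5, 90490737 to 90508907) stood apart from the 5 genes above. Its level was 7.39 and 7.48 TPM in 2D and 8.25 and 7.26 TPM in 3D, and the cultures overlapped. Its log2 difference was 0.05 (SE 0.10, adjusted p 0.682, limma), with a 95% interval from -0.20 to 0.30. That interval lies below the intervals of all 5 genes that rose. Afp exceeded Alb in both 2D libraries, whereas Alb exceeded Afp in both 3D libraries. The Alb to Afp ratio of TPM was 0.111 and 0.161 in 2D and 1.54 and 1.38 in 3D (two-sided exact permutation p 0.3333, the smallest possible here).

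**Figure D2:**
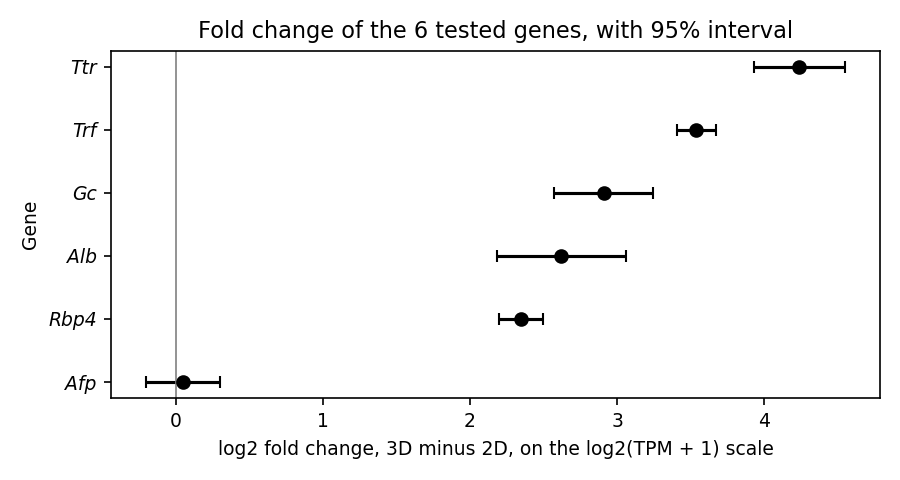
Fold change of the 6 tested transport protein genes from limma, as the difference of 3D minus 2D on the log2(TPM + 1) scale, with bars for the 95% interval and a grey line at no change. Ttr is highest at 4.24, Trf, Gc, Alb and Rbp4 follow between 3.54 and 2.35, and the bar of Afp crosses 0.

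The other 4 genes were near the bottom of the table. Ambp (ENSMUSG00000028356, chromosome 4, 63143275 to 63154799) was at 0.0497 and 0.343 TPM in 2D and at 0.957 and 0.968 TPM in 3D. Its 3D libraries were close together and above both 2D libraries, which were far apart. With no filter on low values Ambp passed the test, at a log2 difference of 0.72 (adjusted p 0.0466, limma), under a setting in which 8.74% of genes were called higher. Fetub (ENSMUSG00000022871, chromosome 16, 22918334 to 22939778) was at 0.197 and 0.106 TPM in 2D and at 0.430 and 0.236 TPM in 3D. Ahsg (ENSMUSG00000022868, chromosome 16, 22891277 to 22899449), which lies 18.9 kb from Fetub, was listed at 0 in 3 libraries and at 0.0352 TPM in the remaining library, 3D replicate 1. Apoh (ENSMUSG00000000049, chromosome 11, 108343354 to 108414396) was at 1.40 and 0.478 TPM in 2D and at 0.896 and 0.470 TPM in 3D, with the cultures overlapping, and it shares 575 bases with Prkca on the other strand. A 0 in a table of TPM can be a failed estimate, and with the depth unknown no detection limit can be set for these genes. With no filter, Fetub, Ahsg and Apoh differed by 0.21, 0.02 and -0.17 on the log2 scale (adjusted p 0.335, 0.571 and 0.716, limma). Over the 10 genes, 7 had both 3D libraries above both 2D libraries, as did 24.8% of all listed genes.

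Added together, the 10 genes took up 106 and 98.5 TPM in 2D and 708 and 725 TPM in 3D. The mean sum was 102 ± 5.60 TPM in 2D against 717 ± 11.9 TPM in 3D (SD, n = 2), a ratio of 7.00 that was not tested. It remained a small part of the RNA, at 0.0106% and 0.00985% of the TPM total in 2D and 0.0708% and 0.0725% in 3D. The make-up of the sum is given as a description, with no test. Rbp4 gave 63.1% and 63.6% of it in 2D and 45.8% and 47.5% in 3D, while Trf went from 18.1% and 18.6% to 32.1% and 31.9%. Ttr went from 3.75% and 3.15% to 12.4% and 11.2%. Afp made up 6.95% and 7.60% of the sum in 2D and 1.17% and 1.00% in 3D. Alb stayed a minor component, with 0.770% and 1.22% in 2D and 1.799% and 1.38% in 3D.

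**Figure D3:**
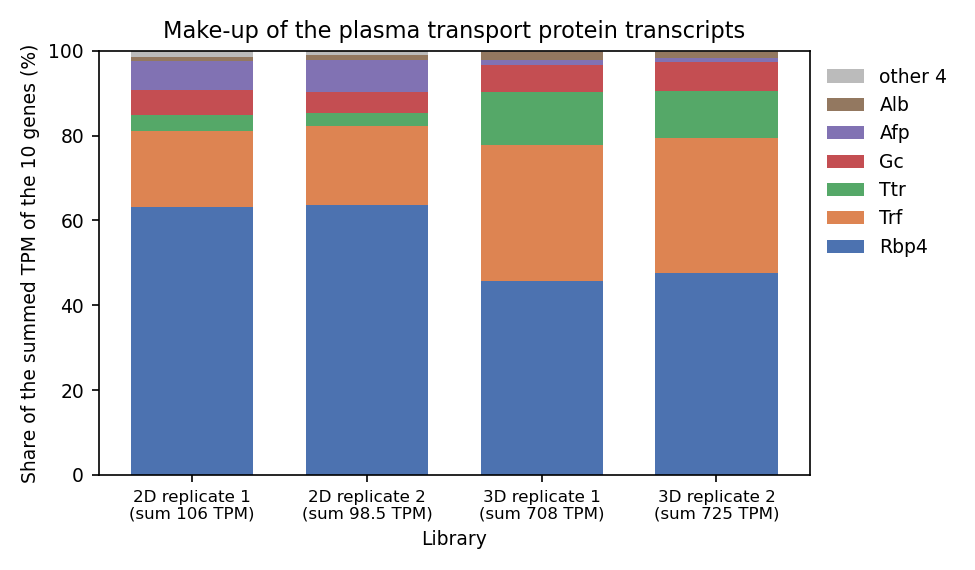
Share of the summed TPM of the 10 transport protein genes that each gene takes, in percent, with 1 bar for each library and the sum written under it. Rbp4 is the largest block in all 4 bars, the Trf and Ttr blocks are wider in the 3D bars, and the Afp block is wider in the 2D bars.

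Alb and Afp lie next to each other in the same orientation, with 14.1 kb between the end of Alb and the start of Afp. Afm, which encodes afamin, a vitamin E-binding member of the family, follows 10.02 kb further on. Gc lies 1.00 Mb away on the side of Alb. Afm was at 0.192 and 0.303 TPM in 2D and at 3.37 and 3.25 TPM in 3D, up by 1.79 on the log2 scale (adjusted p 0.000913, limma). Its 2D mean was 0.248 TPM, so Afm reached the filter of 1 TPM through its 3D level alone, and its call is no support for a contrast with Afp. From Gc to Rassf6, the first tested gene past Afm, 9 of 16 listed genes were tested, and this stretch was set after the values were seen. Of these, Gc, Alb, Afm and Rassf6 were higher in 3D and Cox18 was lower, a call that was lost with any 1 library left out. Ankrd17, Gm9958, Eif5al3-ps and Afp did not pass the test. Among all tested genes 23.4% were higher and 27.1% were lower. Gc and Alb are themselves members, so no change of the region can be read from these calls.

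**Figure D4:**
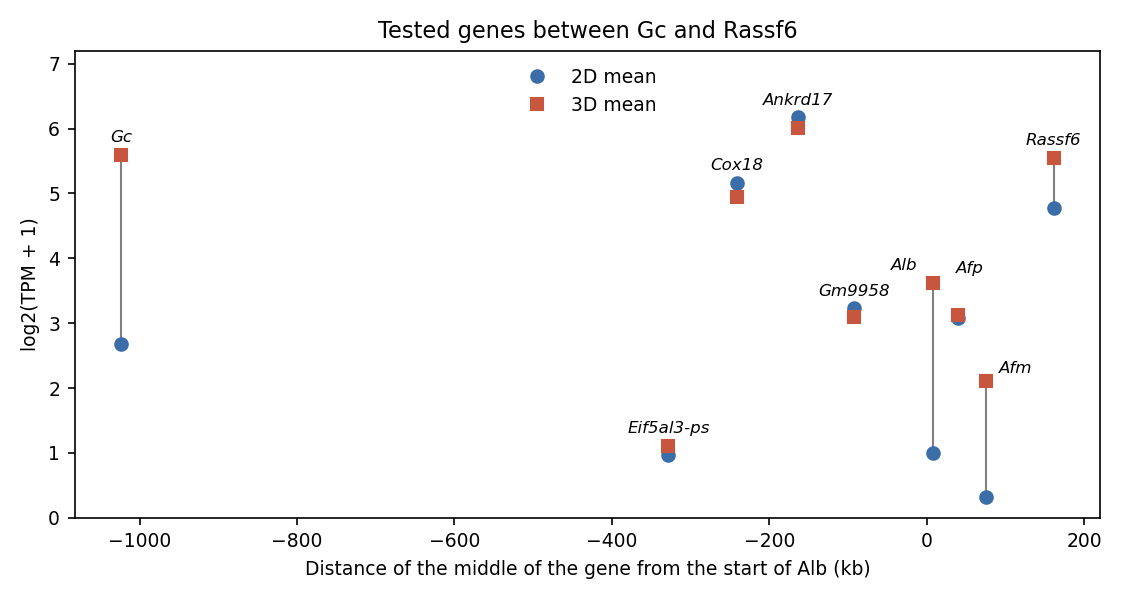
Mean log2(TPM + 1) of each culture for the 9 tested genes from Gc to Rassf6 on chromosome 5, against the distance of the middle of the gene from the start of Alb in kb, with circles for 2D, squares for 3D and a line joining the cultures. The lines of Gc, Alb and Afm are long, and the symbols of Afp, between Alb and Afm, lie on top of each other.

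The upstream sequences of Alb and Afp are shown because Alb passed the test and Afp, next to it, did not. The 250 bases before the RefSeq start site (GRCm38.p6) are printed in the direction of transcription, with capitals for TTGCNNAA, a site of the C/EBP family, searched on both strands.
Alb, chr5:90460620-90460869, plus strand: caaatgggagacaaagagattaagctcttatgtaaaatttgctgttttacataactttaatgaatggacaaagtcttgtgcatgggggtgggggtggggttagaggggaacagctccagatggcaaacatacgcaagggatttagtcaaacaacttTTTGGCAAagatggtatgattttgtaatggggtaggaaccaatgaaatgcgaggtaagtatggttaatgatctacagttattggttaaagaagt
Afp, chr5:90490464-90490713, plus strand: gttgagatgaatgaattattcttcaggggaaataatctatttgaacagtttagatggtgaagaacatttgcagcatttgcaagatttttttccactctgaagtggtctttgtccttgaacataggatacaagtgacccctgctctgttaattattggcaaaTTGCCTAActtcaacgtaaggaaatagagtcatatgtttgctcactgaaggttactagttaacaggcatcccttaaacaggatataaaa

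The C/EBP letters were found 94 to 87 bases before the RefSeq start of Alb, on the opposite strand. For Afp they lay 89 to 82 bases before its RefSeq start, on the gene's own strand. Both RefSeq starts lie upstream of the gene starts given above. RefSeq gave 10 windows for 8 of the members, and TTGCNNAA was in 4 of them, of Alb, Afp, Ahsg and Rbp4, as in 9.56% of 32851 windows of all genes. Trf and Ttr had no window and were not searched. TGTTTAC, a FOXA site, was in windows of Apoh, Fetub and Rbp4 (3.17% of all windows), and TATAAA, the TATA box, in windows of Afp, Fetub and Rbp4 (12.4%). The HNF4 site CAAAGTCCA was in none of the 10 (0.384% of all windows). No overlap between different motifs was seen in the windows of Alb and Afp. C/EBP letters were thus present in windows of Alb and Rbp4, which rose, and of Afp, which did not pass the test. A match describes the letters only, and the part of these sites in the RNA levels was not tested.

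Transcription factors known to act on these genes were compared next. Of 19 such genes 16 were tested, of which 10 were higher in 3D, 0 were lower and 6 did not pass the test. Among all tested genes 23.4% were higher and 27.1% were lower. The median log2 difference of the 16 was 0.34. Gata4 and Prox1, counted among the 10, lost their calls without either 3D replicate, and Prox1 also without 2D replicate 1. Hnf4a, a central hepatocyte regulator, rose by 1.47, and the circadian factor Dbp, which binds the albumin promoter, by 1.45 (adjusted p 0.000241 and 0.00137, limma). Hnf4a was at 56.7 and 57.6 TPM in 2D and at 164 and 156 TPM in 3D, and Dbp at 7.48 and 8.28 TPM in 2D and at 20.9 and 25.8 TPM in 3D, with no overlap between the cultures for either. Foxa2 and Foxa3, which bind FOXA sites, rose by 1.07 and 0.84 (adjusted p 0.00281 and 0.00320). Cebpa and Cebpb, of the C/EBP family, had log2 differences of 0.39 and 0.23. The call of Cebpa was lost without 2D replicate 1 or either 3D replicate, and that of Cebpb without either replicate 2. That of Cebpb was also lost with no filter and with a constant prior variance in the limma fit. Zhx2 and Zbtb20, which repress Afp in adult liver, were both expressed, and neither passed the test. The log2 difference of Zhx2 was -0.12, adjusted p 0.250. That of Zbtb20 was -0.54, adjusted p 0.124, with wide spread, at 26.6 and 38.3 TPM in 2D and at 25.9 and 18.1 TPM in 3D. Foxa1 and Nr5a2 were below 1 TPM in every library.

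Proteins that bind the transport proteins, or take them up, were also compared. Of 19 such genes 16 were listed and 8 were tested. In 3D 5 were higher and 1 was lower, against 23.4% and 27.1% of all tested genes. Stra6, the receptor through which cells take retinol from the Rbp4 protein, was at 9.74 and 12.2 TPM in 2D and at 69.7 and 68.8 TPM in 3D, and its 3D libraries lay far above its 2D libraries. It rose by 2.56 (adjusted p 0.000361, limma). Tfrc, the receptor for iron-loaded transferrin, rose by 0.44 (adjusted p 0.00352). Itih2, a heavy chain that is joined to the bikunin part of the Ambp product, rose by 1.14 (adjusted p 0.000456), while Itih1, Itih3 and Itih4 were below 1 TPM in every library. Among endocytic receptors, Lrp1 had a log2 difference of 0.46, a call that was lost without either 3D replicate. Lrp2 was at 0.476 and 0.527 TPM in 2D and at 1.67 and 1.73 TPM in 3D, a difference of 0.84, and it reached the filter through 3D alone. Cubn, which works with Lrp2 in the uptake of filtered proteins, was at 3.90 and 4.16 TPM in 2D and at 0.857 and 0.871 TPM in 3D, a difference of -1.43, and it reached the filter through 2D alone. Both were admitted to the test by the culture where they are high, so the calls of Lrp2 and Cubn are no support for a change of the group. Tfr2 (0.51, adjusted p 0.0728) and Lrp8 (0.65, adjusted p 0.0955) did not pass the test. Fcgrt, which rescues albumin from degradation, was too low for the test, at 0.405 and 0.407 TPM in 2D and at 1.88 and 1.23 TPM in 3D.

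Of 19 genes that handle the carried ligands 17 were listed and 14 were tested. In 3D 8 were higher and 0 were lower, against 23.4% and 27.1% of all tested genes. For iron, Fth1, the ferritin heavy chain, stood at 7174 ± 111 TPM in the 2D cultures against 15935 ± 76.3 TPM in the 3D cultures (mean ± SD, n = 2) and rose by 1.15 (adjusted p 0.000192, limma). Slc11a2, an iron importer, rose by 0.99, Hmox1, which breaks down haem, by 0.55, and Ftl1, the ferritin light chain, by 0.27. The call of Ftl1 was lost without either 3D replicate and with a constant prior variance in the limma fit. Slc40a1, the iron exporter, did not pass the test (-0.15, adjusted p 0.185), and the hepcidin gene Hamp was below 1 TPM in every library. For vitamin D, Cyp27a1 rose by 0.75 and the receptor Vdr did not pass the test (0.30, adjusted p 0.0605). For retinol, Rdh10, which oxidises it, rose by 0.25, a call that was likewise lost without either 3D replicate. For thyroid hormone, Dio1, a deiodinase, was too low for the test, at 0.0373 and 0.128 TPM in 2D and at 1.63 and 1.79 TPM in 3D.

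By protein family, 12 relatives of the members were listed and 8 were tested. In 3D 6 were higher and 1 was lower, against 23.4% and 27.1% of all tested genes. Afm and Orm2, counted among the 6, reached the filter through 3D alone. The lipocalins Lcn2 and Ptgds rose by 3.39 and 1.797, and Apom, Orm1 and Orm2 by 0.59, 0.36 and 0.89, while Orm3 did not pass the test (-0.34, adjusted p 0.0583). Without 3D replicate 2 the call of Apom was lost. The Orm genes are close copies, so their separate levels are uncertain. Cst3, a secreted cystatin, fell by 0.32. Hrg, Kng1 and Kng2, which belong to the cystatin superfamily as the fetuins do, were below 1 TPM in every library, like Ahsg and Fetub.

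Of 18 other carriers of plasma 17 were listed and 12 were tested. In 3D 10 were higher and 2 were lower, against 23.4% and 27.1% of all tested genes. The median log2 difference of the 12 was 1.32. Selenop, a selenium carrier, stood at 132 ± 9.27 TPM in the 2D cultures against 978 ± 2.62 TPM in the 3D cultures (mean ± SD, n = 2) and rose by 2.88 (adjusted p 0.000173, limma). Cp, the copper protein of plasma, rose by 2.66, Hpx, the haem carrier, by 2.93, and Hp, the haemoglobin carrier, by 5.43. Serpina7, the thyroxine-binding globulin that carries the same hormone as transthyretin, was at 0.135 and 0 TPM in 2D and at 2.58 and 2.81 TPM in 3D. It reached the filter through 3D alone, as did Igfals and Apoc3, so 3 of the 10 higher calls are of genes admitted by the culture where they are high. Apob and Apoa1 rose by 1.33 and 1.03, while Lcat and Apoe fell by 1.02 and 0.46. The call of Apoe was lost with no filter, which leaves 1 lower gene, and also without 2D replicate 2 or either 3D replicate. Of the 10 higher genes, Apoc3 lost its call without either replicate 2, and Apom without 3D replicate 2. Apoa2, Apoa4 and Apoc1 were below 1 TPM in every library.

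**Figure D5:**
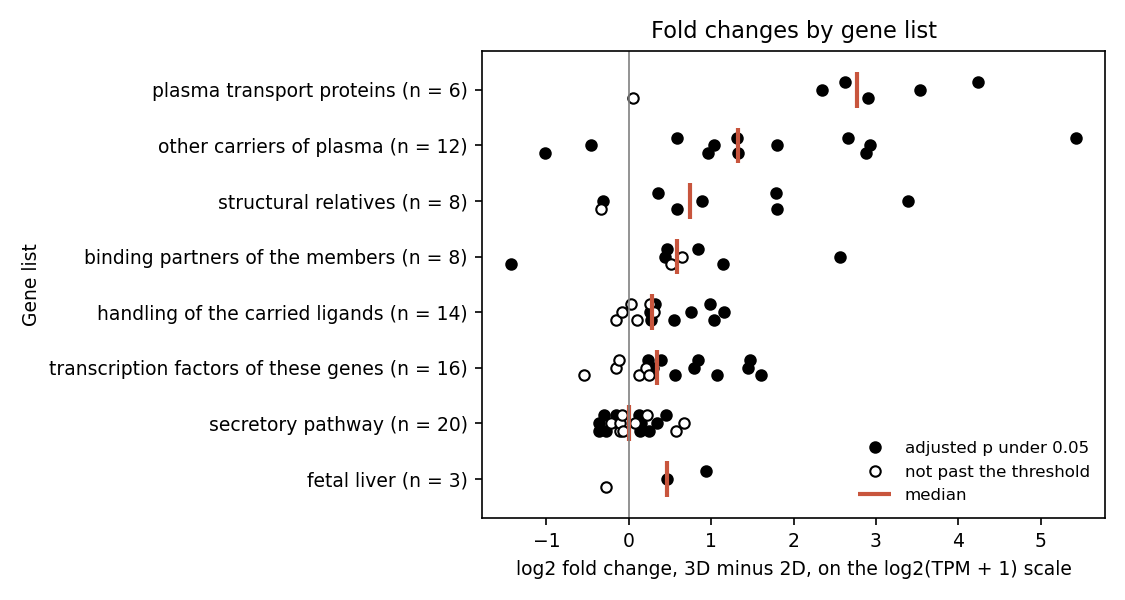
Fold change of every tested gene of the transport protein list and of 7 companion lists, as 3D minus 2D on the log2(TPM + 1) scale, with filled points for an adjusted p-value under 0.05, open points for the others and a red bar for the median. The transport proteins have the median farthest to the right, at 2.77, and the secretory pathway lies around 0.

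The genes beside each transport protein gene were taken as the nearest non-overlapping gene on each side with a mean of at least 1 TPM. They lay from 1.86 kb to 938 kb away. Prkca, which overlaps Apoh, was thus not counted. It was at 17.4 and 19.7 TPM in 2D and at 18.7 and 18.8 TPM in 3D, with the cultures overlapping. Of the 16 neighbours that were not members, 6 were higher, 2 were lower and 8 did not pass the test. Among all tested genes 23.4% were higher and 27.1% were lower. The median log2 difference of the 16 was 0.11. Afm, counted among the 6, reached the filter through 3D alone. Zfp618, also among the 6, lost its call with no filter, with replicate number added to the fit and with any 1 library left out. Srprb, 1.86 kb from Trf, was at 44.7 and 42.8 TPM in 2D and at 43.4 and 46.2 TPM in 3D, with no difference past the threshold (0.03, adjusted p 0.667). Cep55, 42.2 kb from Rbp4, fell by 0.80 (adjusted p 0.000486, limma). Kif12, 10.8 kb from Ambp, rose by 1.44 (adjusted p 0.00191).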

How the data were processed

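Trizol RNA of AML12 cells went into stranded libraries of polyadenylated RNA, 2 per culture. By their notes the authors used cutadapt 1.8.3 and Trimmomatic 0.36 for trimming, HISAT2 2.0.5 for alignment to GRCm38 and StringTie 1.3.4 with Ensembl 93 for quantification. The authors deposited TPM for each library. TPM are relative within a library and keep no read numbers, so the depth is unknown. The authors also compared the cultures with DESeq2 on read counts, and the log2 fold change and p-value that the authors deposited from it were not used.

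Here, limma 3.58.1 (R 4.3.3, trended and robust prior variance) compared the cultures on log2(TPM + 1) for genes with a mean of at least 1 TPM, two-sided, without covariates, with Benjamini-Hochberg adjustment over all genes tested. Exact permutation tests and motif searches used scipy 1.17.1 and Python 3.11.15. The fit was tested on simulated data in which 200 of 14116 genes were changed, and 5.66% of its 212 calls were false. In the real libraries 7122 genes were called, so that share need not hold for them. Members and lists were chosen with earlier results of these data known. All 10 members are named. Genes of the companion lists are named with preference for a high mean TPM or a level near 0, and neighbours may be named. By identifier all 10 members were found in GENCODE M21, and 8 have the same position there. Listed genes with no row in the table, such as Lrat, Cyp2r1 and Gpc3, were not analysed here. Some genes of the lists, counted in the totals, and 1 motif are not reported here by name. Alternative settings were a pseudocount of 0.1 or 5, testing without a filter or at 5 TPM and above, 4 scalings, a replicate block, a constant prior variance and leaving out each library.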

Additional observations from a re-analysis of the deposited data

How the results depend on the processing

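Ttr, Trf, Gc, Rbp4 and Alb passed the threshold, higher in 3D, under all 14 alternatives, and 0 members were lower under any of them. The log2 difference ranged from 3.39 to 4.55 for Ttr, 3.30 to 3.60 for Trf, 2.32 to 3.10 for Gc, 2.28 to 2.40 for Rbp4 and 1.44 to 3.38 for Alb, where Alb was lowest with a pseudocount of 5 and highest with 0.1. Afp ranged from -0.031 without 3D replicate 1 to 0.13 without 3D replicate 2 and never passed the threshold. The median over the tested members was 3.24 with a pseudocount of 0.1, 2.30 with a pseudocount of 5 and 2.85 when rescaled without mitochondrial genes and the 20 highest. With no filter it was 1.54, since the 4 low members then enter it. A pseudocount shrinks the changes of low genes by construction. Alb and Ttr met the filter of 5 TPM through their 3D level alone. Their means were 1.01 and 3.55 TPM in 2D, against 11.4 and 84.5 TPM in 3D. Under that filter the calls of Alb and Ttr are therefore no added support for their rise. The number of genes called, 7122 with all libraries, was 4720 to 5954 with each library left out, lowest without 3D replicate 1. Those fits take the lone library to vary like the other culture. With the replicate block 6248 genes were called, and the same number of members, 5, was higher. Same-numbered libraries did not deviate together (correlation -0.0549 over 14116 genes), which cannot tell whether they were prepared together. The numbers are used here to name the libraries, and the main fit did not pair them. With the depth unknown, the 4 low members have values with no known read support.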

Other observations

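Genes of the secretory pathway, which every plasma protein passes through, moved in both directions, as tested genes did as a whole. Of 20 such genes, all tested, 6 were higher and 5 were lower in 3D. Among all tested genes 23.4% were higher and 27.1% were lower, so the counts are no trait of this pathway. The median log2 difference of the 20 was 0.0029. Pdia4 and Calr, which help proteins fold in the endoplasmic reticulum, rose by 0.45 and 0.34, and Lman1, a cargo receptor, by 0.24, a call that was lost without either 3D replicate. Sec61a1, a channel subunit, and Ssr3 fell by 0.36 and 0.30. With the replicate block or a constant prior variance 3 of the 20 were higher, and with either 3D library left out the number was 2. The lower count was 3 without 2D replicate 1, without 3D replicate 2 and with no filter. Hspa5, the main chaperone of that compartment, was at 391 and 826 TPM in 2D and at 837 and 854 TPM in 3D, so that 2D replicate 1 stood below the other libraries, and it did not pass the test (0.57, adjusted p 0.239).

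Of 10 genes high in fetal liver, read beside Afp, 9 were listed and 3 were tested. In 3D 2 were higher and 0 were lower, against 23.4% and 27.1% of all tested genes. Tspan8 and Cd24a rose by 0.94 and 0.46 (adjusted p 0.000317 and 0.000992, limma), and Igf2bp3 did not pass the test (-0.28, adjusted p 0.141). Lin28b was too low for the test, at 1.01 and 1.12 TPM in 2D and at 0.472 and 0.488 TPM in 3D. Its 3D libraries thus lay below its 2D libraries. Dlk1, H19, Igf2, Bex1 and Hbb-y were below 1 TPM in every library.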
